A study of Mus musculus with 18 samples.

Results

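The genes described here are 10 receptors of the C-type lectin family that are known from myeloid cells: *Clec4n*, *Clec4d*, *Clec4e*, *Clec7a*, *Clec5a*, *Clec12a*, *Clec4a1*, *Clec4a2*, *Clec4a3* and *Clec10a*. They were chosen by name as a family of receptors, at a time when earlier results of these data were known. Each symbol matched 1 Ensembl identifier, and all 10 were listed both among the 55029 genes of the files that hold the IFN-γ samples and among the 54232 genes of the files that hold the IL-4 samples.

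C-type lectin receptors sit at the surface of myeloid cells and bind sugars and lipids of microbes or products of damaged cells. Dectin-2 (*Clec4n*), MCL (*Clec4d*) and Mincle (*Clec4e*) signal through the Fc receptor γ chain, and Dectin-1 (*Clec7a*) through a tyrosine motif of its own tail, in each case to the kinase SYK and onward through CARD9 to NF-κB. Other members of the family, such as MICL (*Clec12a*) and DCIR (*Clec4a2*), carry an inhibitory tyrosine motif that recruits phosphatases.

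RNA was measured in 18 libraries of eosinophils from the peritoneal cavity of C57BL/6 mice of the NJ.1638 line, which carry an *Il5* transgene, so all groups come from animals with raised IL-5. Beads against Thy1.2 and B220 depleted lymphocytes, and the remaining eosinophils were cultured for 18 h in DMEM with fetal calf serum. There were 6 unstimulated libraries and 3 each with IL-4, with heat-inactivated *E. coli*, with IFN-γ, and with the last 2 stimuli together. The age and sex of the mice were not given in the sources used here. Unstimulated libraries a to c share a file layout with the *E. coli* and IFN-γ libraries (the IFN-γ set below), and unstimulated libraries d to f with the IL-4 libraries (the IL-4 set). Each stimulus was therefore set against the unstimulated cells of the same layout, and levels were not compared between layouts. The comparisons of the IFN-γ set share unstimulated libraries a to c and are thus not independent of each other. The labels name both CEL-Seq on a NextSeq and RNA-seq on a HiSeq for every library, so which protocol each layout stems from is not known. The published text speaks of biological replicates, but nothing in the labels says that they came from separate mice or cultures, so the tests measure the spread between these libraries.

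Libraries held 1523808 to 2734041 counts on genes (IFN-γ set) or 3625036 to 6482289 (IL-4 set). Levels are CPM normalized by TMM, with mean ± SD over n = 3 libraries. The floor of detection was put at 3 counts, which is 1.10 to 1.97 CPM (IFN-γ set) or 0.463 to 0.828 CPM (IL-4 set) and covers counting error only. No count of the former set exceeded 4095, and the highest count of each of its libraries lay at 4089 or above, whereas counts of the IL-4 set reached 191131. The highest count of any of the 10 genes in the former set was 1566, in *Clec4e*. Unstimulated library e stood apart from libraries d and f, with a chi-square per gene of 21.4 and 19.8 against them and 7.17 between d and f, so that log2 fold changes with IL-4 of receptors and of partner genes are also given without it. *E. coli* library 3 also stood further from libraries 1 and 2 (3.47 and 4.20) than these from each other (1.59), as did library 3 of both stimuli (5.46 and 4.53 beside 2.44) and unstimulated library b (4.21 from a and 4.14 from c beside 2.34). A gene is called higher or lower where the adjusted p of edgeR's quasi-likelihood test over all genes tested was under 0.05.

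The label of the cells was checked on a list of 10 eosinophil genes. Their summed level was 3842, 5139 and 3990.2 CPM in unstimulated libraries a, b and c and 5173, 6002 and 5293 CPM in d, e and f. *Ccr3*, the eotaxin receptor, was at 1431 ± 246 and 2149 ± 454 CPM in these groups and *Siglecf* at 1020.4 ± 127 and 707 ± 32.2 CPM. The granule genes *Epx* (1.43 ± 0.608 and 1.62 ± 0.462 CPM) and *Prg3* (1.08 ± 0.294 and 1.88 ± 0.156 CPM) were near the floor, while *Prg2*, which encodes major basic protein, was at 29.5 ± 2.75 and 35.1 ± 11.1 CPM. In the IFN-γ set *Ccr3* and *Alox15*, which carry most of these sums, reached 3576 and 3732 counts, so near the highest count found there that their levels and the sums may be compressed.

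The eosinophil genes themselves moved with the stimuli. Their sum was 3519, 3117 and 3533 CPM with *E. coli*, 4071, 3605 and 4446 CPM with IFN-γ, 3275, 2893 and 3125 CPM with both and 5031, 5234 and 5104 CPM with IL-4. All libraries with *E. coli*, alone or with IFN-γ, lay below the unstimulated ones, while those with IFN-γ alone and with IL-4 overlapped theirs. *Siglecf* was called lower with *E. coli* (log2 fold change -0.68), IFN-γ (-0.70) and both (-1.55) and higher with IL-4 (0.39). *Il5ra*, which encodes the IL-5 receptor α chain, was likewise called lower with *E. coli* (-1.35), IFN-γ (-0.37) and both (-1.28) and higher with IL-4 (0.60). *Prg2* was called lower with IFN-γ (-0.81) and both (-1.13) and higher with IL-4 (0.83), and *Alox15* lower with both (-0.60). *Ear6* was called higher with *E. coli* (1.29), both (0.52) and IL-4 (1.34) and lower with IFN-γ (-0.93). *Ccr3* was called lower with IL-4 (-0.72), and in the IFN-γ set, where it was not called, its counts lay too near the highest count found for that to be read as a lack of change. The part of these changes in those of the receptors was not tested.

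All 9 receptor genes other than *Clec10a* had enough counts to be tested in the IFN-γ set, and all 10 were tested with IL-4. With *E. coli*, 2 of 9 were higher and 3 lower, where 13.5% and 16.7% of all tested genes were called in these directions. With IFN-γ, 4 of 9 were higher and 3 lower, beside 15.6% and 16% of all genes. With IFN-γ and *E. coli* together 4 of 9 were higher and 4 lower, beside 23.9% and 25.2%. With IL-4, 2 of 10 were higher and 4 lower, beside 5.97% and 4.35%. Without *E. coli* library 3, 6 receptors were called with *E. coli*, and without library 3 of both stimuli 7 with both. The shares of all genes above belong to the fits with all libraries, so these counts have no share beside them. Leaving out unstimulated library b altered the receptor calls against unstimulated cells for *Clec4a1* with *E. coli* and *Clec7a* with IFN-γ only. The median log2 fold change of the tested receptors was -0.48 with *E. coli*, 0.37 with IFN-γ, -0.64 with both and -0.61 with IL-4, and that of all tested genes lay between -0.04 and 0.00. The receptors did not move as a block in any of these comparisons, since each holds genes called in either direction. With IFN-γ and *E. coli* the higher ones were *Clec4n*, *Clec4d*, *Clec4e* and *Clec4a2* and the lower ones *Clec7a*, *Clec12a*, *Clec4a1* and *Clec4a3*. With IL-4 the higher ones were *Clec7a* and *Clec10a* and the lower ones *Clec4n*, *Clec4d*, *Clec4e* and *Clec4a1*.

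**Figure D1:**
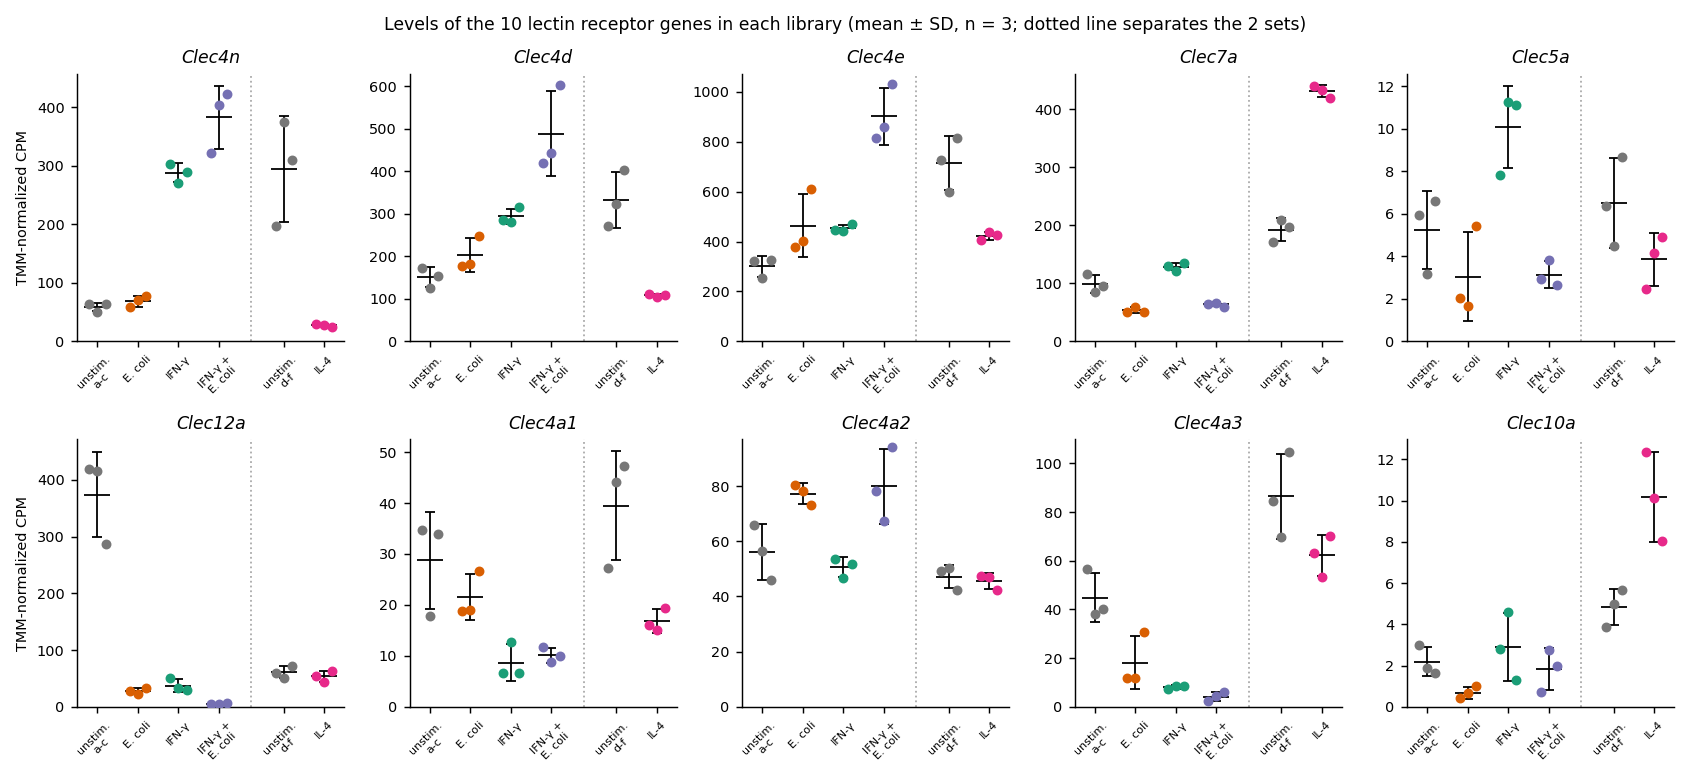
Normalized CPM (vertical axes, linear from 0) of each of the 10 receptor genes in every library (points) of the 6 groups (horizontal axes), with mean and SD of n = 3 as bars; levels left and right of the dotted line come from separate sets and are not on one scale. *Clec12a* lay at 287 CPM or above in unstimulated libraries a to c and at 50.9 CPM or below with *E. coli*, IFN-γ or both.

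*Clec4n* encodes Dectin-2, a receptor for mannans of fungal and other microbial surfaces. Its level was 63.3, 50.7 and 63.2 CPM in unstimulated libraries a, b and c, 57.9, 70.2 and 77.0 CPM with *E. coli*, 303, 271 and 288 CPM with IFN-γ and 321, 403 and 422 CPM with both. Every library with IFN-γ, with or without *E. coli*, lay above every library without it, and the *E. coli* libraries overlapped the unstimulated ones. *Clec4n* rose 4.82-fold with IFN-γ, a log2 fold change of 2.27 (SE 0.14, edgeR adjusted p = 4.82e-10), and 6.41-fold with both stimuli, a log2 fold change of 2.68 (SE 0.14, edgeR adjusted p = 1.92e-11). With *E. coli* alone the log2 fold change was 0.19 (SE 0.14, edgeR adjusted p = 0.339) and was not called. In the IL-4 set the levels were 196, 375 and 309.8 CPM in unstimulated libraries d, e and f and 29.1, 28.1 and 25.4 CPM with IL-4. The IL-4 libraries lay close together, below the lowest unstimulated library, while the unstimulated libraries spread widely. *Clec4n* fell 10.6-fold with IL-4, with a log2 fold change of -3.41 (SE 0.23, edgeR adjusted p = 2.63e-05), and without unstimulated library e it was -3.20 (edgeR adjusted p = 6.46e-08).

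*Clec4d* and *Clec4e* encode MCL and Mincle, which pair with each other and bind trehalose glycolipids of mycobacteria. *Clec4d* was at 173, 127 and 153 CPM in unstimulated libraries a, b and c, 178, 182 and 249 CPM with *E. coli*, 285, 281 and 315 CPM with IFN-γ and 419, 443 and 604 CPM with both. *Clec4e* was at 322, 252 and 327 CPM unstimulated, 379, 402 and 611 CPM with *E. coli*, 447, 442 and 470.2 CPM with IFN-γ and 814, 858 and 1033 CPM with both. Both genes were highest in the libraries with both stimuli, none of which overlapped another group, and for each gene library 3 was the highest of every stimulated group of this set. *Clec4d* rose with IFN-γ by a log2 fold change of 0.95 (SE 0.16, edgeR adjusted p = 1.34e-04) and with both stimuli by 1.69 (SE 0.16, edgeR adjusted p = 6.25e-08). *Clec4e* rose with *E. coli* by 0.62 (SE 0.16, edgeR adjusted p = 0.00567), with IFN-γ by 0.59 (SE 0.16, edgeR adjusted p = 0.00848) and with both by 1.58 (SE 0.16, edgeR adjusted p = 1.70e-07). Without the respective library 3 the values with both stimuli were 1.52 (edgeR adjusted p = 2.92e-08) for *Clec4d* and 1.49 (edgeR adjusted p = 2.08e-07) for *Clec4e*, and that of *Clec4e* with *E. coli* was 0.38 (edgeR adjusted p = 0.0424). The mean of *Clec4e* was 464 ± 128 CPM with *E. coli* and 453 ± 15.0 CPM with IFN-γ. The libraries of these groups overlapped and were not tested against each other. For *Clec4d* with *E. coli* the log2 fold change of 0.41 (SE 0.16, edgeR adjusted p = 0.0546) was not called. It was called without unstimulated library a (edgeR adjusted p = 0.0435), without *E. coli* library 1 (0.0416) or without *E. coli* library 2 (0.0496), whereas without *E. coli* library 3 it was 0.25 (edgeR adjusted p = 0.252) and not called.

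With IL-4 both genes moved the other way. *Clec4d* was at 271, 323 and 403 CPM in unstimulated libraries d, e and f and at 112, 104 and 108 CPM with IL-4. *Clec4e* was at 725, 601 and 817 CPM in the unstimulated libraries and at 405, 437 and 428 CPM with IL-4. For either gene every IL-4 library lay below every unstimulated one. *Clec4d* fell 3.08-fold, with a log2 fold change of -1.62 (SE 0.15, edgeR adjusted p = 1.80e-04), and *Clec4e* fell 1.69-fold, with -0.75 (SE 0.13, edgeR adjusted p = 0.00496). Without unstimulated library e these log2 fold changes were -1.65 (edgeR adjusted p = 2.89e-06) for *Clec4d* and -0.87 (edgeR adjusted p = 2.33e-05) for *Clec4e*.

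*Clec7a* encodes Dectin-1, the receptor for β-glucans of fungal cell walls. It was at 116, 84.9 and 95.8 CPM in unstimulated libraries a, b and c, 51.0, 59.8 and 50.9 CPM with *E. coli*, 130.4, 122 and 135 CPM with IFN-γ and 65.0, 66.8 and 60.0 CPM with both. The libraries with *E. coli*, alone or with IFN-γ, were all below the unstimulated ones, and the IFN-γ libraries were all above them. *Clec7a* fell with *E. coli*, with a log2 fold change of -0.88 (SE 0.13, edgeR adjusted p = 4.12e-05), and with both stimuli, with -0.64 (SE 0.13, edgeR adjusted p = 6.29e-04). With IFN-γ alone it rose by 0.37 (SE 0.12, edgeR adjusted p = 0.0274). That call was lost without unstimulated library b (edgeR adjusted p = 0.0827), unstimulated library c (0.0760), IFN-γ library 1 (0.0623) or IFN-γ library 3 (0.0697). In order of mean level the groups of this set were IFN-γ (129 ± 6.47 CPM), unstimulated (98.7 ± 15.5 CPM), both stimuli (64.0 ± 3.54 CPM) and *E. coli* (53.9 ± 5.15 CPM).

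In the IL-4 set *Clec7a* was at 171, 209 and 198 CPM in unstimulated libraries d, e and f and at 439, 434 and 419.9 CPM with IL-4. The groups were far apart, and each was narrow. *Clec7a* rose 2.24-fold with IL-4, with a log2 fold change of 1.16 (SE 0.12, edgeR adjusted p = 2.50e-04), and without unstimulated library e of 1.22 (edgeR adjusted p = 3.30e-06). GENCODE M21 lists *Clec7a* as a polymorphic pseudogene, a class for genes that are intact in some strains only, and its counts were used like those of the other genes.

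*Clec5a* encodes MDL-1, an activating receptor that pairs with the adaptors DAP12 and DAP10. Its levels were low, with 5.96, 3.17 and 6.61 CPM in unstimulated libraries a, b and c, 2.04, 1.67 and 5.43 CPM with *E. coli*, 7.84, 11.3 and 11.1 CPM with IFN-γ and 2.92, 3.84 and 2.64 CPM with both. All IFN-γ libraries lay above all unstimulated ones, and the *E. coli* libraries overlapped the unstimulated libraries. None of these differences from unstimulated cells was called, with log2 fold changes of -0.92 for *E. coli*, 0.87 for IFN-γ and -0.77 for both, and edgeR adjusted p of 0.120, 0.0815 and 0.189. Without *E. coli* library 3 the log2 fold change with *E. coli* was -1.53 and was called (edgeR adjusted p = 0.0218). With IL-4 the levels were 2.47, 4.15 and 4.93 CPM against 6.39, 4.47 and 8.68 CPM in unstimulated libraries d, e and f. These groups overlapped, and the log2 fold change of -0.77 (SE 0.38, edgeR adjusted p = 0.246), or -1.001 (edgeR adjusted p = 0.107) without unstimulated library e, was not called.

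*Clec12a* encodes MICL, an inhibitory receptor of granulocytes and monocytes that binds uric acid crystals. It was at 418, 416 and 287 CPM in unstimulated libraries a, b and c, 28.6, 22.4 and 32.6 CPM with *E. coli*, 50.9, 32.8 and 28.8 CPM with IFN-γ and 4.38, 4.93 and 6.59 CPM with both. Every stimulated library lay below every unstimulated one, and the libraries with both stimuli lay below those with either stimulus alone. *Clec12a* fell 13.6-fold with *E. coli*, a log2 fold change of -3.76 (SE 0.19, edgeR adjusted p = 8.39e-11), and 9.89-fold with IFN-γ, a log2 fold change of -3.31 (SE 0.19, edgeR adjusted p = 2.23e-10). With both it fell 69.5-fold, a log2 fold change of -6.12 (SE 0.26, edgeR adjusted p = 1.52e-12), at 6 to 10 counts per library. Whichever single library was dropped, this value stayed between -6.28 and -5.99. The *E. coli* and IFN-γ libraries, with means of 27.8 ± 5.13 and 37.5 ± 11.8 CPM, overlapped and were not tested against each other. For IL-4, *Clec12a* was at 59.7, 51.0 and 71.7 CPM unstimulated and 54.2, 44.4 and 63.5 CPM with IL-4. The groups overlapped, and the log2 fold change of -0.18 (SE 0.18, edgeR adjusted p = 0.588), or -0.30 (edgeR adjusted p = 0.269) without unstimulated library e, was not called. In these cultures of bulk cells, fewer cells that carry a transcript and less of it per cell cannot be told apart.

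*Clec4a2* encodes DCIR, which carries an inhibitory motif, and *Clec4a3* and *Clec4a1* encode its relatives DCIR3 and DCIR4. *Clec4a3* was at 56.6, 38.0 and 40.1 CPM in unstimulated libraries a, b and c, 11.8, 11.7 and 30.6 CPM with *E. coli*, 7.28, 8.71 and 8.50 CPM with IFN-γ and 2.19, 4.38 and 5.94 CPM with both. All stimulated libraries lay below the unstimulated ones, with *E. coli* library 3 the nearest to them. *Clec4a3* fell by a log2 fold change of -1.38 (SE 0.28, edgeR adjusted p = 9.39e-04) with *E. coli*, -2.47 (SE 0.34, edgeR adjusted p = 1.56e-05) with IFN-γ and -3.40 (SE 0.39, edgeR adjusted p = 9.04e-07) with both. With *E. coli* the fold change ranged over -1.93 to -1.12 with each library left out, the larger fall being that without *E. coli* library 3, where it remained called (edgeR adjusted p over these fits at most 0.0135). Around IL-4, *Clec4a3* was at 84.7, 69.9 and 105 CPM unstimulated and 63.2, 53.5 and 70.2 CPM with IL-4, which overlapped. Its log2 fold change of -0.48 (SE 0.18, edgeR adjusted p = 0.121) was not called, and without unstimulated library e it was -0.62 (edgeR adjusted p = 0.00987), which was called.

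*Clec4a1* was at 34.7, 17.7 and 33.9 CPM in unstimulated libraries a, b and c, 18.8, 19.1 and 26.7 CPM with *E. coli*, 6.72, 12.8 and 6.54 CPM with IFN-γ and 11.7, 8.77 and 9.89 CPM with both. Unstimulated library b was low and overlapped the *E. coli* libraries, and all libraries with IFN-γ lay below it. *Clec4a1* fell with IFN-γ, with a log2 fold change of -1.73 (SE 0.30, edgeR adjusted p = 1.77e-04), and with both stimuli, with -1.56 (SE 0.30, edgeR adjusted p = 2.57e-04). With *E. coli* the log2 fold change was -0.48 (SE 0.24, edgeR adjusted p = 0.152) and was not called, whereas without unstimulated library b it was -0.67 (edgeR adjusted p = 0.0324). Its level in the IL-4 set was 27.2, 44.1 and 47.2 CPM unstimulated and 16, 15.1 and 19.4 CPM with IL-4. The groups did not overlap, and *Clec4a1* fell by a log2 fold change of -1.25 (SE 0.22, edgeR adjusted p = 0.00613), or -1.18 (edgeR adjusted p = 0.00268) without unstimulated library e. It was thus lower with IFN-γ and with IL-4, each against its own unstimulated libraries.

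*Clec4a2* was at 66.0, 56.4 and 45.8 CPM in unstimulated libraries a, b and c, 80.4, 78.2 and 73.1 CPM with *E. coli*, 53.7, 46.6 and 51.7 CPM with IFN-γ and 78.1, 67.4 and 94.3 CPM with both. The libraries with *E. coli*, alone or with IFN-γ, lay above the unstimulated ones, and those with IFN-γ alone overlapped them. *Clec4a2* rose with *E. coli* by a log2 fold change of 0.46 (SE 0.15, edgeR adjusted p = 0.0236) and with both by 0.50 (SE 0.15, edgeR adjusted p = 0.0105), and with IFN-γ alone the value of -0.15 (SE 0.16, edgeR adjusted p = 0.508) was not called. The call with *E. coli* was lost without unstimulated library c (edgeR adjusted p = 0.125), *E. coli* library 1 (0.0697) or *E. coli* library 2 (0.0621). That with both stimuli was lost without unstimulated library c (edgeR adjusted p = 0.0642) or library 3 of both stimuli (0.0540). The groups of the IL-4 set overlapped at 49.2, 50.2 and 42.3 CPM unstimulated and 47.4, 47.2 and 42.3 CPM with IL-4. The log2 fold change there was -0.05 (SE 0.14, edgeR adjusted p = 0.875), and its sign turned to 0.00 (edgeR adjusted p = 0.994) without unstimulated library e.

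*Clec10a* encodes MGL1, a receptor for galactose and *N*-acetylgalactosamine that is widely used as a marker of macrophages treated with IL-4. In the IFN-γ set it had 1 to 9 counts per library and was not tested. In the IL-4 set it was at 3.89, 4.97 and 5.66 CPM in unstimulated libraries d, e and f and at 12.4, 10.1 and 8.04 CPM with IL-4. All IL-4 libraries lay above all unstimulated ones, at 31 to 65 counts. *Clec10a* rose 2.09-fold, a log2 fold change of 1.06 (SE 0.29, edgeR adjusted p = 0.0418), or 1.07 (edgeR adjusted p = 0.0427) without unstimulated library e. DESeq2 gave 1.06 with an adjusted p of 0.0540 (DESeq2), which was not called. The edgeR call was also lost without unstimulated library d (edgeR adjusted p = 0.0803), unstimulated library f (0.0674), IL-4 library 1 (0.190), IL-4 library 2 (0.140) or IL-4 library 3 (0.0664).

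**Figure D2:**
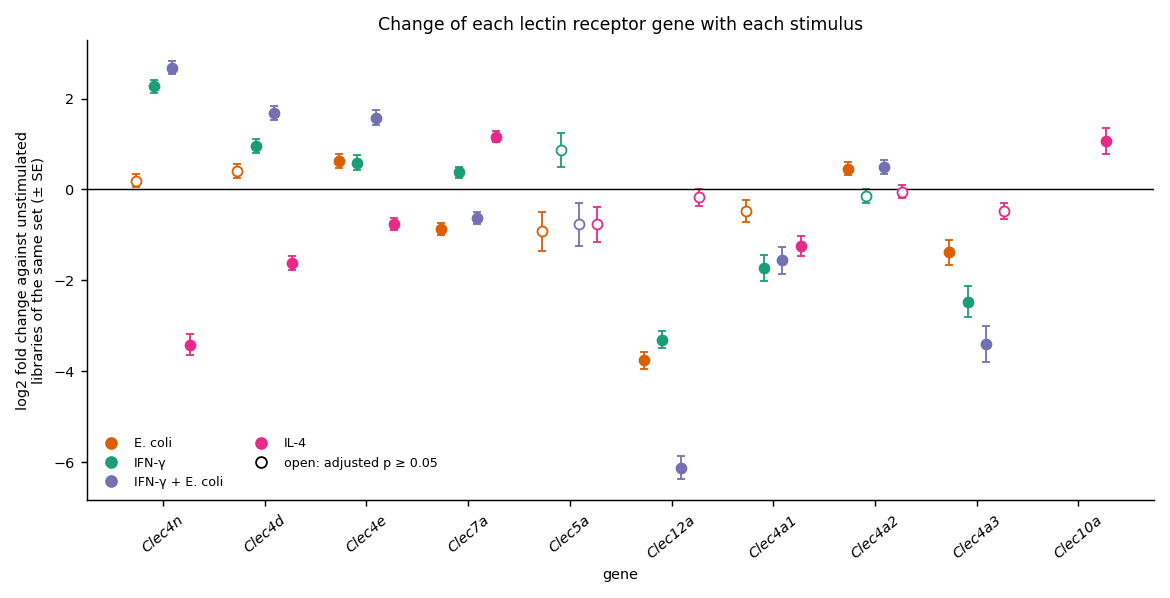
Log2 fold change (vertical axis, ± SE) of each receptor gene (horizontal axis) with *E. coli*, IFN-γ, both, or IL-4 against the 3 unstimulated libraries of the same set, with filled points where edgeR's adjusted p was under 0.05; *Clec10a* was tested with IL-4 only. *Clec4n* lies at 2.68 with both stimuli and at -3.41 with IL-4, and *Clec12a* at -6.12 and -0.18.

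The effect of adding *E. coli* to IFN-γ was read from the comparison of both stimuli with IFN-γ alone, in which 4 of 9 receptors were higher and 3 lower, where 6.25% and 5.98% of all tested genes were called. *Clec4e* was higher by a log2 fold change of 0.99 (SE 0.16, edgeR adjusted p = 2.90e-04), *Clec4d* by 0.73 (SE 0.15, edgeR adjusted p = 0.00355), *Clec4a2* by 0.65 (SE 0.16, edgeR adjusted p = 0.00985) and *Clec4n* by 0.41 (SE 0.12, edgeR adjusted p = 0.0362). *Clec12a* was lower by -2.81 (SE 0.33, edgeR adjusted p = 1.03e-05), *Clec7a* by -1.01 (SE 0.13, edgeR adjusted p = 4.09e-05) and *Clec5a* by -1.65 (SE 0.44, edgeR adjusted p = 0.0195). *Clec4a1* (0.17) and *Clec4a3* (-0.94) were not called. The call of *Clec4n* was lost without IFN-γ library 1 (edgeR adjusted p = 0.0713), 2 (0.149) or 3 (0.0847) and without library 2 (0.135) or 3 (0.113) of both stimuli. That of *Clec5a* was lost without IFN-γ library 2 (edgeR adjusted p = 0.0677) or 3 (0.0545) or library 1 (0.0537) or 3 (0.0518) of both stimuli, and that of *Clec4a2* without IFN-γ library 2 (0.0554).

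Against *E. coli* alone, both stimuli gave 3 of 9 receptors higher and 3 lower, beside 17.5% and 15.3% of all genes. *Clec4n* was higher by a log2 fold change of 2.49 (SE 0.14, edgeR adjusted p = 1.02e-10), *Clec4d* by 1.27 (SE 0.15, edgeR adjusted p = 3.26e-06) and *Clec4e* by 0.96 (SE 0.16, edgeR adjusted p = 9.67e-05). *Clec12a* was lower by -2.36 (SE 0.33, edgeR adjusted p = 2.06e-05), *Clec4a3* by -2.02 (SE 0.44, edgeR adjusted p = 0.00167) and *Clec4a1* by -1.08 (SE 0.31, edgeR adjusted p = 0.0107), the last of which was not called without library 2 of both stimuli (edgeR adjusted p = 0.0551). *Clec7a*, *Clec4a2* and *Clec5a* were not called, with 0.24, 0.04 and 0.15.

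Whether the joint change departed from the sum of the log2 changes with each stimulus alone was tested as an interaction. In edgeR 0 of 9 receptors were called, beside 4.62% of all tested genes, with 0 at an unadjusted p under 0.05 and 0 called by DESeq2. *Clec12a* had the largest departure, 0.95 (SE 0.45, edgeR adjusted p = 0.299), since its fall with both stimuli (-6.12) was smaller than the sum of -3.76 and -3.31. For *Clec4n*, *Clec4d* and *Clec4e* the departures were 0.22, 0.32 and 0.37. A p above the threshold does not show that the changes add up.

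The change with IL-4 was compared with the change with IFN-γ and *E. coli* in 1 model of all 18 libraries, each change taken against its own unstimulated libraries. Of 10 tested receptors 3 differed upwards and 4 downwards, beside 18.5% and 20.7% of all genes. *Clec4n*, *Clec4d* and *Clec4e*, the receptors that signal through the Fc receptor γ chain, and *Clec4a2* had the lower value with IL-4. *Clec12a*, *Clec4a3* and *Clec7a* had the higher one, and *Clec4a1*, *Clec10a* and *Clec5a* did not pass the test. The layouts of the files differ between these stimuli, and a layout and its stimuli cannot be told apart.

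Apart from *Clec10a* on chromosome 11 (chr11:70156197-70170834) and *Clec5a* (chr6:40574894-40585821), the receptor genes lie in 2 stretches of chromosome 6 (GRCm38, GENCODE M21). *Clec4a1* (chr6:122921848-122934619), *Clec4a3* (chr6:122952515-122969875), *Clec4a2* (chr6:123106428-123143999), *Clec4n* (chr6:123229843-123247021), *Clec4d* (chr6:123262111-123275265) and *Clec4e* (chr6:123281789-123289870) follow each other in this order over 368023 bases that hold 9 protein-coding genes. The 3 others of this stretch, *Clec4a4*, *Clec4b1* and *Clec4b2*, had at most 1, 1 and 2 counts in any library of the IFN-γ set and at most 1, 12 and 1 in the IL-4 set, and were tested in neither. Within the stretch the adjacent *Clec4n*, *Clec4d* and *Clec4e* rose with IFN-γ and fell with IL-4, while *Clec4a1* and *Clec4a3* at its other end fell with IFN-γ. With IL-4 *Clec4a1* was called lower as well, and *Clec4a3* was not called. *Clec12a* (chr6:129342691-129365303) and *Clec7a* (chr6:129461591-129472779) enclose *Clec12b*, *Clec1b*, *Clec9a* and *Clec1a*, which reached at most 0, 8, 6 and 1 counts in the former set and 0, 6, 3 and 1 in the latter. No exon of the 10 genes overlaps an exon of another gene. The transcripts of *Clec4a2* are 95.3% identical to *Clec4a4* over 301 bases and 96.3% to *Clec4b1* over 436 bases, and those of *Clec10a* 96.4% to *Mgl2* over 727 bases, so the counts of *Clec4a2* and *Clec10a* are uncertain to the extent that reads of such copies were left out or misplaced.

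The promoter table of RefSeq (GRCm38.p6, 250 bases before to 50 after a start) held 8 of the 10 genes, and *Clec4n* and *Clec10a* had no entry. The windows were searched on both strands for TTGCNNAA (C/EBP), GAGGAA (PU.1), TGANTCA (AP-1) and 2 longer patterns. No matches overlapped each other in these windows. GAGGAA was found in 6 of 8 windows and in 28.3% of the 27025 promoters of the table, 1 per gene. TTGCNNAA was found in 2 windows (*Clec4e* and *Clec12a*) against 10.8% of all and TGANTCA in 2 (*Clec4a2* and *Clec12a*) against 7.93%. A pattern of 10 letters for NF-κB was found in 1 window (*Clec4a1*) against 20.5% of all, and one for STAT6 in 3 (*Clec5a*, *Clec4a1* and *Clec7a*) against 6.99%. These matches are a description of the letters and not of bound sites.

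The promoters are shown for 2 neighbours that rose with IFN-γ and fell with IL-4, *Clec4d* (chr6:123261857-123262156 on the plus strand) and *Clec4e* (chr6:123289822-123290121 on the minus strand), and for 2 that fell with IFN-γ and with *E. coli*, *Clec12a* (chr6:129349994-129350293 on the plus strand) and *Clec4a3* (chr6:122952265-122952564 on the plus strand). Each is written 5′ to 3′ along its gene, with the matches in capitals.
Clec4d: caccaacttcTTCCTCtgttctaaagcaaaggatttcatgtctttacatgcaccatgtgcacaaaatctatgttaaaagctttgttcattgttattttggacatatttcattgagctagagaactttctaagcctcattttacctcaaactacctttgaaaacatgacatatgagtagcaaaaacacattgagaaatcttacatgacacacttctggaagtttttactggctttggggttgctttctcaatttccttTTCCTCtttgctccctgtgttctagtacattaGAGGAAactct
Clec4e: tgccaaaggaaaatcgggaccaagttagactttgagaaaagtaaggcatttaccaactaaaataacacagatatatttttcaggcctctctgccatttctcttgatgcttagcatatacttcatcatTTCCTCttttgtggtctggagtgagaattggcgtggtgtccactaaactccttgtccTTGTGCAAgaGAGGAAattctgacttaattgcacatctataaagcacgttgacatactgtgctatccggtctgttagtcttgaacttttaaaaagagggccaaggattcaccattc
Clec12a: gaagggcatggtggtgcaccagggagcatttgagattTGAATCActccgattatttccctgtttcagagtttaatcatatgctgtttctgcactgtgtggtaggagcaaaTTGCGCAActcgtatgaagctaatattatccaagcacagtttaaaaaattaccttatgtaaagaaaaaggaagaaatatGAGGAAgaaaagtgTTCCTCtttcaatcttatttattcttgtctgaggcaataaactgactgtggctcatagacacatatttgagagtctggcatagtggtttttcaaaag
Clec4a3: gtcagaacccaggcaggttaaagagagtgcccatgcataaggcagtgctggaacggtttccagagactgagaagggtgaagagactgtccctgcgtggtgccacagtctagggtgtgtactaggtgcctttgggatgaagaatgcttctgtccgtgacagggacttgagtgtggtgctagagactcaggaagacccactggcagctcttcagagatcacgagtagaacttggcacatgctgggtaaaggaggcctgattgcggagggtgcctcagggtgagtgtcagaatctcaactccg
In *Clec4d* the capitals mark 3 matches to GAGGAA. In *Clec4e* they mark 2 matches to GAGGAA and, between these, TTGTGCAA. In *Clec12a* they mark TGAATCA, TTGCGCAA and 2 matches to GAGGAA. The *Clec4a3* window held no match.

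The partners of these receptors were read from a list of 10 adaptors, kinases and phosphatases. Of these, 2 higher and 1 lower (13.5% and 16.7% of all genes) were called with *E. coli*, 2 higher and 1 lower (15.6% and 16% of all genes) with IFN-γ, 3 higher and 3 lower (23.9% and 25.2% of all genes) with both and 0 higher and 1 lower (5.97% and 4.35% of all genes) with IL-4, with medians of -0.02, 0.11, 0.08 and -0.17 on the log2 scale, beside -0.02, -0.03, -0.04 and 0.00 for all genes. Nothing particular to these or the next lists is read from such counts. *Fcer1g*, the Fc receptor γ chain, was at 863, 1100.2 and 883 CPM in unstimulated libraries a, b and c, 1248, 1114 and 1303 CPM with IFN-γ and 1281, 1259.6 and 1550.4 CPM with both. All libraries with IFN-γ lay above the unstimulated ones, and *Fcer1g* rose by a log2 fold change of 0.37 (SE 0.13, edgeR adjusted p = 0.0342) with IFN-γ and 0.52 (SE 0.13, edgeR adjusted p = 0.00209) with both. The call with IFN-γ was lost without unstimulated library a (edgeR adjusted p = 0.136) or c (0.112) or IFN-γ library 1 (0.0851) or 3 (0.103). With IL-4 its log2 fold change was -0.48 (SE 0.14, edgeR adjusted p = 0.0585) in edgeR, which was not called, and -0.49 in DESeq2, which was (DESeq2 adjusted p = 0.0216). In edgeR it was called without unstimulated library d (edgeR adjusted p = 0.0380) or without e, with -0.31 (edgeR adjusted p = 0.0276). *Tyrobp*, which encodes DAP12, fell with IL-4 by a log2 fold change of -0.43 (SE 0.12, edgeR adjusted p = 0.0457), or -0.32 (edgeR adjusted p = 0.0156) without unstimulated library e. This call was lost without unstimulated library f (edgeR adjusted p = 0.0576) or IL-4 library 1 (0.196), 2 (0.166) or 3 (0.0990). In the IFN-γ set *Tyrobp* had up to 3588 counts, near the highest count that occurs there, and its log2 fold change with both stimuli was 0.03 (SE 0.14, edgeR adjusted p = 0.879). With counts corrected for such a ceiling that value turned to -0.32 and was called by edgeR. With the same correction *Fcer1g*, which reached 2977 counts in that set, was also called higher with *E. coli* by edgeR. In uncorrected counts *Fcer1g* was called higher with *E. coli* without unstimulated library b, by 0.35 (edgeR adjusted p = 0.0448). Leaving out the same library, *Tyrobp* was called higher with IFN-γ, by 0.37 (edgeR adjusted p = 0.0287). *Hcst*, which encodes DAP10, fell in that set, by -1.26 with *E. coli*, -0.99 (IFN-γ) and -1.60 (both) on the log2 scale. With IL-4 its log2 fold change of 0.50 (SE 0.15, edgeR adjusted p = 0.0663) was not called, and without unstimulated library e it was called at 0.57 (edgeR adjusted p = 0.0150). The Src family kinase *Fgr* rose by 0.89, 0.74 and 0.83, *Ptpn11*, which encodes the phosphatase SHP2, by 0.71 (SE 0.10, edgeR adjusted p = 2.69e-05) with *E. coli* and 0.36 (SE 0.10, edgeR adjusted p = 0.00843) with both, and *Csk* fell by -0.66 (SE 0.14, edgeR adjusted p = 7.38e-04) with both.

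Downstream, 24 of 25 genes of the SYK and CARD9 pathway were tested in the IFN-γ set and all 25 in the IL-4 set. Of these, 5 higher and 2 lower (13.5% and 16.7% of all genes) were called with *E. coli*, 6 higher and 3 lower (15.6% and 16% of all genes) with IFN-γ, 12 higher and 4 lower (23.9% and 25.2% of all genes) with both and 2 higher and 1 lower (5.97% and 4.35% of all genes) with IL-4. Their median log2 fold changes were 0.10, 0.20, 0.33 and -0.08, beside -0.02, -0.03, -0.04 and 0.00 for all tested genes. *Syk* was at 408, 462 and 457 CPM in unstimulated libraries a, b and c and 532, 519.8 and 594 CPM with IFN-γ, which did not overlap, and rose by a log2 fold change of 0.31 (SE 0.10, edgeR adjusted p = 0.0292) with IFN-γ and 0.26 (SE 0.10, edgeR adjusted p = 0.0438) with both. The call of *Syk* with IFN-γ was lost without unstimulated library a (edgeR adjusted p = 0.125) or IFN-γ library 3 (0.107). That with both was lost without unstimulated library a (edgeR adjusted p = 0.166) or c (0.0594) or library 2 (0.0667) or 3 (0.133) of both stimuli. *Card9*, which encodes the adaptor downstream of SYK, was near the floor, with 0 to 5 counts per library in the IFN-γ set, where it was not tested, and 0.555, 1.99 and 3.40 CPM in unstimulated libraries d, e and f against 2.28, 1.83 and 2.59 CPM with IL-4. *Malt1*, the protease that acts with CARD9 and BCL10, rose with both stimuli from 23.5 ± 7.38 to 71.3 ± 15.2 CPM, 1.57 (SE 0.22, edgeR adjusted p = 9.51e-06) on the log2 scale, and the NF-κB subunit *Rel* from 43.0 ± 12.9 to 93.7 ± 13.1 CPM, 1.09 (SE 0.18, edgeR adjusted p = 5.62e-05). *Rel* also rose with IFN-γ to 68.3 ± 4.25 CPM, 0.64 (SE 0.18, edgeR adjusted p = 0.0119), and with *E. coli* to 60.8 ± 9.19 CPM, 0.48 (SE 0.18, edgeR adjusted p = 0.0481), where the groups overlapped. DESeq2 did not call the latter (DESeq2 adjusted p = 0.0573), and the edgeR call was lost without unstimulated library a (edgeR adjusted p = 0.137) or b (0.160) or *E. coli* library 1 (0.0855) or 2 (0.202). With IL-4 *Rel* rose from 32.1 ± 6.63 to 52.8 ± 4.11 CPM, 0.73 (SE 0.17, edgeR adjusted p = 0.0247), or 0.64 (edgeR adjusted p = 0.0206) without unstimulated library e. That call was lost without unstimulated library f (edgeR adjusted p = 0.0848) or IL-4 library 1 (0.107), 2 (0.122) or 3 (0.0652). The calcineurin-dependent factor *Nfatc2* rose with *E. coli* from 39.6 ± 5.59 to 54.6 ± 4.68 CPM, 0.47 (SE 0.15, edgeR adjusted p = 0.0236), a call lost without unstimulated library a (edgeR adjusted p = 0.0537) or c (0.115) or *E. coli* library 1 (0.106) and not made by DESeq2 (DESeq2 adjusted p = 0.0790). It fell with IFN-γ to 10.1 ± 0.768 CPM, -1.96 (SE 0.20, edgeR adjusted p = 5.41e-07), and with both by -2.52 (SE 0.22, edgeR adjusted p = 3.15e-08). *Mapk14*, which encodes the kinase p38α, fell with both from 155 ± 11.7 to 49.4 ± 15.3 CPM, -1.66 (SE 0.17, edgeR adjusted p = 1.89e-07), and was also called lower with *E. coli* (-0.64) and IFN-γ (-0.996).

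Of 48 other genes with a C-type lectin domain, 23 passed the floor of 3 counts in at least 1 library of the IFN-γ set and 27 did so with the IL-4 files, and 10 and 15 were tested. Among these, 2 higher and 2 lower (13.5% and 16.7% of all genes) were called with *E. coli*, 1 higher and 4 lower (15.6% and 16% of all genes) with IFN-γ, 2 higher and 4 lower (23.9% and 25.2% of all genes) with both and 2 higher and 1 lower (5.97% and 4.35% of all genes) with IL-4, with medians of -0.29, -0.08, 0.01 and 0.53, against -0.02, -0.03, -0.04 and 0.00 over all genes. At 0 in every library were 12 of the 48 genes in the former set and 9 in the latter. *Cd69*, an early activation marker of leukocytes, rose with IL-4 by a log2 fold change of 2.04 (SE 0.14, edgeR adjusted p = 2.63e-05), or 2.08 (edgeR adjusted p = 2.10e-07) without unstimulated library e. It also rose with *E. coli*, from 42.6 ± 11.2 to 75.3 ± 9.64 CPM, 0.83 (SE 0.17, edgeR adjusted p = 9.53e-04), and with both to 61.2 ± 7.64 CPM, 0.53 (SE 0.18, edgeR adjusted p = 0.0198), and these groups did not overlap the unstimulated one. The call with both was lost without unstimulated library a (edgeR adjusted p = 0.141) or library 3 of both stimuli (0.0650). *Cd93* was at 13.4, 12.7 and 12.8 CPM in unstimulated libraries a, b and c and 2.24, 2.05 and 1.31 CPM with IFN-γ, far below them, a log2 fold change of -2.74 (SE 0.45, edgeR adjusted p = 1.14e-04). It also fell with IL-4, by -2.15 (SE 0.42, edgeR adjusted p = 0.00896), or -2.51 (edgeR adjusted p = 5.56e-05) without unstimulated library e, a call lost without IL-4 library 2 (edgeR adjusted p = 0.0552). With *E. coli* *Cd93* fell by -1.26 (SE 0.34, edgeR adjusted p = 0.00847) and with both by -1.11 (SE 0.37, edgeR adjusted p = 0.0174), calls lost without *E. coli* library 1 (edgeR adjusted p = 0.0540) and without library 2 of both stimuli (0.132), and the latter was not made by DESeq2 (DESeq2 adjusted p = 0.0541). *Klrg1*, an inhibitory receptor best known from lymphocytes, fell with both stimuli from 14.7 ± 5.58 to 2.13 ± 1.01 CPM, -2.70 (SE 0.43, edgeR adjusted p = 3.76e-05), and *Selp*, the adhesion molecule P-selectin, from 30.0 ± 4.90 to 9.10 ± 1.92 CPM, -1.75 (SE 0.34, edgeR adjusted p = 3.10e-04). Both were also called lower with IFN-γ (-1.69 and -1.23).

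Since the receptors are also expressed by macrophages, monocytes, dendritic cells and neutrophils, marker genes of other cell types were measured in the same libraries. The published text reports that purity was checked by flow cytometry before use, and it describes the contaminants as mostly lymphocytes. *Ly6c2*, the most abundant of the 15 genes of the macrophage and monocyte list, had 3359 to 4083 counts in the libraries of the IFN-γ set, at or near the highest count found there, and was left out of the sums. In the IL-4 set, where counts went higher, it was at 23019 ± 709 CPM unstimulated and 23573 ± 716 CPM with IL-4. The other 14 genes summed to 2074, 1875 and 1972 CPM in unstimulated libraries a, b and c, 1091, 1004 and 1741 CPM with *E. coli*, 2609, 2451 and 2590.3 CPM with IFN-γ and 2145, 2507 and 2889 CPM with both. Sums of the IL-4 set were 3669.9, 3980.1 and 4753 CPM unstimulated and 2931, 2815 and 3307 CPM with IL-4. These sums were higher in every library with IFN-γ and lower in every *E. coli* and IL-4 library than in the unstimulated libraries of the same set. 13 or 14 of the 15 genes exceeded 3 counts in every library of a group, and *Cx3cr1* did so in none. *Ccr2*, a gene of the list also named after its values were seen, was far below *Ly6c2* in the IL-4 set. It was at 3.95 ± 0.601 CPM in unstimulated libraries d to f and 6.06 ± 1.73 CPM with IL-4. The complement genes of tissue macrophages were present, with *C1qc* at 230.3 ± 38.8 CPM in unstimulated libraries a to c and 821 ± 176 CPM in d to f. *Marco*, a scavenger receptor of the list that was picked after its values were seen, went from 163 ± 2.62 CPM to 50.1 ± 15.0 (*E. coli*), 334 ± 14.3 (IFN-γ) and 408 ± 77.7 CPM (both stimuli), and from 195 ± 20.6 to 28.6 ± 1.94 CPM with IL-4. The part of these or any of the other cells below in the changes of the receptors was not tested.

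The 9 neutrophil genes summed to 585 to 720.0 CPM unstimulated, 457 to 519 CPM with *E. coli*, 681 to 780.2 CPM with IFN-γ and 559 to 629 CPM with both, and to 1695 to 2005 CPM unstimulated and 772 to 837 CPM with IL-4. *Retnlg* led this list, with 1855 ± 172 CPM in unstimulated libraries d to f and 755 ± 43.6 CPM with IL-4. Without it the sums ran the other way in part, with 44.4 to 54.1 CPM unstimulated, 162 to 245 CPM with *E. coli*, 102 to 116 CPM with IFN-γ and 278 to 305 CPM with both, and 25.3 to 36.6 against 43.9 to 65.6 CPM around IL-4. *S100a8* was called higher with *E. coli* (log2 fold change 3.06), IFN-γ (2.20) and both (2.71), *Mmp8* higher with the same stimuli (1.58, 1.94 and 4.36) and lower with IL-4 (-1.59), and *Ly6g* higher with IFN-γ (2.27) and both (1.63). *Cxcr2* was called higher with *E. coli* (1.73) and IL-4 (3.09) and lower with IFN-γ (-1.76) and both (-0.73), while *Ltf*, *Ngp* and *Camp*, genes of neutrophil granules, had means of at most 1.15 CPM in every group. The 8 dendritic cell genes, led by *Ccr7*, summed to 22.4 to 26.6 CPM unstimulated, 8.57 to 16.3 CPM with *E. coli*, 24.2 to 39.7 CPM with IFN-γ and 27.0 to 43.3 CPM with both, and to 10.3 to 16.4 CPM unstimulated and 14.1 to 23.8 CPM with IL-4. Of these, *Xcr1* was at 2.58 ± 2.44 and 2.84 ± 0.611 CPM in the unstimulated groups and at 7.09 ± 1.97 CPM with IL-4, and *Cd209a* (IFN-γ set), *Clec9a* and *Siglech* (IL-4 set) never exceeded 3 counts. The 7 B cell genes, led by *Ighm*, summed to 118 to 218 CPM unstimulated, 42.0 to 76.5 CPM with *E. coli*, 58.2 to 101 CPM with IFN-γ and 124 to 136 CPM with both, and to 24.2 to 44.5 CPM unstimulated and 60.1 to 73.4 CPM with IL-4. The 9 T and NK cell genes, led by *Cd3d*, summed to 5.70 to 9.32 CPM unstimulated, 3.68 to 6.42 CPM with *E. coli*, 4.61 to 5.23 CPM with IFN-γ and 4.62 to 7.12 CPM with both, and to 4.47 to 5.83 CPM unstimulated and 1.81 to 6.85 CPM with IL-4, with *Klrb1c* at 0 in every library and *Cd3e*, *Cd3g*, *Cd4* and *Cd8a* at or under 3 counts. The 8 mast cell and basophil genes, led by *Tpsb2*, summed to 7.43 to 10.1 CPM unstimulated, 6.69 to 34.6 CPM with *E. coli*, 13.1 to 30.2 CPM with IFN-γ and 36.5 to 72.9 CPM with both, and to 6.96 to 8.61 CPM unstimulated and 8.47 to 21.0 CPM with IL-4, with *Mcpt8* at 0 throughout the former set. The 5 mesothelial genes, among which *Lrrn4* led the IFN-γ set and *Upk3b* the IL-4 set, reached at most 2.08 CPM in any library.

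For each receptor tested in both sets, the genes most like it were those with the smallest root mean square difference in log2 mean CPM of the 6 groups, centred within each set, among 9200 other genes tested in both. For *Clec4n* these were *Akr1b8* (0.214), *Ptgr1* (0.394) and *Hmox1* (0.472), for *Clec4d* *Me1* (0.172), *Srxn1* (0.205) and *Abcc1* (0.211) and for *Clec4e* *Lrrc8c* (0.0882), *Clmp* (0.0993) and *Spryd7* (0.102), with the difference in parentheses. *Clec7a* was most like *Ptgis* (0.123), *Gm43652* (0.130) and *Lmo2* (0.136), and *Clec5a* most like *Bbc3* (0.107), *Tbx6* (0.212) and *A130014A01Rik* (0.215). *Clec12a* was most like *Krt80* (0.455), *Itga2* (0.483) and *Mylk3* (0.533). For *Clec4a1* the genes were *Tsen54* (0.110), *Foxred2* (0.196) and *Fndc5* (0.207), for *Clec4a2* *Nasp* (0.0453), *Rwdd4a* (0.0489) and *Mafg* (0.050) and for *Clec4a3* *Gm30054* (0.104), *Tmem215* (0.166) and *Slc6a4* (0.193). Among the receptors themselves *Clec4d* and *Clec4e* had the smallest difference, 0.295. Ranked among all genes, *Clec4e* stood at 35 by likeness to *Clec4d*, *Clec4d* at 12 by likeness to *Clec4n* (difference 0.727) and *Clec4a3* at 30 by likeness to *Clec12a* (0.876).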

How the data were processed

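The authors deposited raw counts for each Ensembl gene and library, without normalization. The labels name both CEL-Seq on a NextSeq 550 and RNA-seq on a HiSeq, without assigning libraries to either. The published methods describe CEL-Seq2 libraries from bulk RNA. These methods and the submitters' processing notes name TopHat2 2.1.0 (GRCm38) with HTSeq 0.6.1 for counting, and also fastp 0.20.1 with STAR 2.7.2a, without saying for which libraries. The sources used here do not state whether molecular identifiers were collapsed or strand was used. Summary rows that name no gene (21.1% to 39.4% of what was deposited for the IFN-γ set) were left out. Genes were kept by filterByExpr, scaled by TMM and compared in edgeR 4.0.16 (R 4.3.3) by the quasi-likelihood F test with Benjamini-Hochberg adjustment, in separate models of 12 and 6 libraries, and in 1 model of all 18 for the difference of changes. Standard errors were derived from the fold change and F and are approximate. Scripts were tested on simulated counts.

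The 10 receptors, the partner and marker lists and the rule for named genes (up to 4 per list with the largest change among those called, and *Syk*, *Card9*, *Fcer1g* and *Tyrobp*) were chosen with earlier results of these data known. Promoter motifs were chosen after the values were seen. Alternatives were DESeq2 1.42.0 (an adjusted p given as NA stayed NA), its size factors, other filters, a factor of 2, left-out libraries, only the compared libraries, a replicate block, plain library totals, and counts corrected for a ceiling of 4096, the number of different identifiers of 6 bases.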

Additional observations from a re-analysis of the deposited data

Results flagged for a closer look

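The change of 7 receptor genes with IL-4 differed from their change with IFN-γ and *E. coli*, by edgeR's test of the difference itself, with each change taken against its own unstimulated libraries. Of 10 tested receptors 3 differed upwards and 4 downwards, beside 18.5% and 20.7% of all tested genes. For *Clec4n*, which was -3.41 with IL-4 and 2.68 with both stimuli, the log2 difference was -6.15 (edgeR adjusted p = 5.40e-13). For *Clec4d* it was -3.37 (edgeR adjusted p = 2.92e-10) and for *Clec4e* -2.40 (edgeR adjusted p = 2.64e-08), and these 3 genes were called in opposite directions by the stimuli. For *Clec7a*, called higher with IL-4 and lower with both stimuli, it was 1.73 (edgeR adjusted p = 7.89e-08). For *Clec12a* it was 5.88 (edgeR adjusted p = 2.86e-11) and for *Clec4a3* 2.87 (edgeR adjusted p = 3.93e-05), which fell with both stimuli and were not called with IL-4. For *Clec4a2* it was -0.61 (edgeR adjusted p = 0.0194), a call lost without unstimulated library c (-0.49, edgeR adjusted p = 0.0648) or library 3 of both stimuli (-0.45, edgeR adjusted p = 0.0951). The sets differ in file layout and in the range of their counts, which protocol each stems from is not stated, and a set and its stimuli cannot be told apart.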

How the results depend on the processing

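Of 1579 values of log2 fold changes of named genes under the alternatives, 1438 kept their direction and their side of the threshold, 109 were no longer called, 16 became called and 16 turned sign. Asking also for a factor of 2, which by construction can only remove calls, lowered the number of receptors called from 5 to 2 with *E. coli*, from 7 to 4 with IFN-γ and from 7 to 3 for both stimuli against IFN-γ. With at least 10 counts in every library, where 6 receptors were left to test, the numbers were 3 with *E. coli*, 4 with IFN-γ and 4 (from 7) for the difference between IL-4 and both stimuli. With 1 library left out, the numbers ranged over 4 to 6 with *E. coli*, 6 to 7 with IFN-γ, 7 to 8 with both, 5 to 7 with IL-4, 4 to 6 for both against IFN-γ, 5 to 6 for both against *E. coli*, and 6 to 7 for the difference; that of the interaction was 0 throughout. Without unstimulated library e, 7 of 10 receptors and 1394 genes were called with IL-4, against 6 receptors and 630 genes higher and 459 lower with it. For the factor of 2, the filter on 10 counts and the other left-out libraries no share of all genes is given here. Whether the receptors differ from all genes under these settings was not tested.

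Signs turned in some fits without 1 library, where values ranged over -0.13 to 0.00249 with IL-4 and -0.10 to 0.16 for both against *E. coli* for *Clec4a2*, -0.19 to 0.76 for both against *E. coli* and -0.29 to 0.22 for the difference for *Clec5a*, -0.22 to 0.0780 with *E. coli* and -0.0636 to 0.23 with both for *Tyrobp*, and -0.28 to 0.68 with IL-4 for *Card9*. The sign of *Tyrobp* with both stimuli also turned at 10 or more counts (-0.0295) and with counts corrected for the ceiling (-0.32). Of the turned values only the last was called, and the cause was not tested. Counts of called genes in the partner lists moved by over 1.5 times in 125 of 684 fits, and 3 of 60 mean levels moved by over 1 SD with plain library totals.

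Where this was checked, between either single stimulus and both stimuli, replicate numbers did not consistently pair the libraries. Other groups were not checked in this way. The correlations of same-numbered libraries were -0.0450, 0.212 and 0.331 between IFN-γ and both stimuli and 0.0706, 0.0986 and 0.163 between *E. coli* and both, and IFN-γ library 2 correlated best with library 1 of both (0.266). With the replicate block 7 receptors were called for both against IFN-γ and 6 for both against *E. coli*, as without it. No share of all tested genes is given for the fits with this block, so nothing particular to the receptors is read from these counts. *Clec10a* and *Clec5a* had few counts per library, and the effect of depth was not tested.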
